A study of Mus musculus with 8 samples.

Results

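The genes described here encode the proteins of the mitochondrial ribosome. They were taken from the deposited count table as all protein-coding genes whose symbol is Mrpl or Mrps followed by a digit, without the pseudogenes marked -ps. This gave 77 of the 38293 gene identifiers, 48 named Mrpl and 29 named Mrps, on 17 chromosomes. The data are 8 libraries of left ventricular polyadenylated RNA from C57BL/6J mice, taken 3 days after ischemia-reperfusion, a closure of a coronary artery that is then released. In 4 libraries the heart had received a UPy-PEG gel, a polymer held together by reversible bonds that releases its load slowly, filled with antimiR-195, an oligonucleotide that inhibits the microRNA miR-195. In the other 4 libraries the heart had received the same gel with no drug, here called hydrogel. All 8 libraries therefore share the injury and the gel, and uninjured or uninjected hearts were not analysed here. The gel was given as 2 injections of 10 µl into the ventricle wall. The labels name no gene deletion or transgene and do not say that each library came from its own animal, so a p-value here measures only how these libraries vary.

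The mitochondrial ribosome translates the few mRNAs of the mitochondrial genome, all of which code for subunits of the respiratory chain and the ATP synthase. Its RNAs come from mitochondrial DNA, but every protein of its large and small subunits is made in the cytosol from nuclear genes and imported. Some of these proteins have counterparts in bacterial ribosomes and others are found only in mitochondria. Heart muscle holds many mitochondria, and in humans inherited defects of several of these genes cause cardiomyopathy.

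Among the 77 genes, 76 had enough counts to be tested. They comprised 49 large subunit genes, 29 of them shared with bacteria and 20 specific to mitochondria, and 26 small subunit genes, 16 shared and 10 specific. Mrps30 and Mrps18a carry small subunit symbols, but their proteins sit in the large subunit and are counted there. The last one, Mrps36, carries a ribosomal symbol although its product is now known as a subunit of the alpha-ketoglutarate dehydrogenase complex of the citric acid cycle. Mrpl53 had 0 counts in every library. In the GENCODE M21 annotation Mrpl53 shares exonic bases with 2 other genes, 1 of them on its own strand. Reads there can be set aside as ambiguous, so its 0 counts set no limit on its level.

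Because the drug is an inhibitor of miR-195, the sequence that this microRNA pairs with was sought in the members' 3′ UTRs. The mature mouse microRNA (RefSeq, GRCm38.p6, chr11:70235062-70235082, plus strand) is shown with its seed, bases 2 to 8, in capitals, followed by the matches in 3 members, Mrps6, Mrps25 and Mrpl3. In those matches the capitals mark the letters complementary to the seed and an A after them, which is the strongest class of match.
mmu-miR-195a-5p: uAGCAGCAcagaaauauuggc
Mrps6: gcactatgggTGCTGCTAggttgttgtc
Mrps25: actgttaggtTGCTGCTAagacaatagc
Mrpl3: tggcatgtgtTGCTGCTAcctactgagc

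Matches of at least 7 of these letters, counting the A, were present in 14 of the 75 tested members with an annotated 3′ UTR of at least 50 bases, or 18.7%, against 28.5% of the 12866 tested genes with such a UTR. The members' 3′ UTRs were short, with a median of 396 bases against 1205 bases over those genes. The 14 members with a match had a median log2 fold change of 0.07, and 10 of them were above 0. The 61 members without a match had a median of 0.05, and 39 of them were above 0. The 2 sets thus had nearly the same median, and no member of either passed the threshold of the test described below. Of all genes tested, 52.4% were above 0. The signs rest largely on antimiR-195 replicate 2, a library described below, without which 5 of the 76 tested members were above 0. Without it Mrps6 stood at -0.12, Mrps25 at -0.08 and Mrpl3 at 0.06.

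The promoters of the members hold motifs of factors known for mitochondrial genes: NRF1 (nuclear respiratory factor 1), the ETS factors that include GABPA, and YY1. Promoter sequences were found in the RefSeq table (GRCm38.p6) for 68 of the 77 members and for none of Mrpl13, Mrpl15, Mrpl19, Mrpl38, Mrpl4, Mrpl54, Mrps28, Mrps34 and Mrps35. The motifs searched on both strands, from 250 bases before to 50 after the start, were GCGCNTGCG for NRF1, CCGGAAG for ETS and AAGATGGCG for YY1. Matches were counted separately, so that 1 promoter can hold several, and a palindromic match is read on both strands. The 100 bases before the start of 6 members are shown because they hold these motifs close to the start, with the matches in capitals. They lie at chr11:120484537-120484636 (plus strand, Mrpl12), chr11:58171564-58171663 (plus, Mrpl22), chr19:45006443-45006542 (minus, Mrpl43), chr7:105811088-105811187 (minus, Mrpl17), chr13:14613038-14613137 (minus, Mrpl32) and chr9:98601680-98601779 (minus, Mrps22).
Mrpl12: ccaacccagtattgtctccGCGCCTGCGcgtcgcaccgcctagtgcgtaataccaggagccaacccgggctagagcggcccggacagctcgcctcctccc
Mrpl22: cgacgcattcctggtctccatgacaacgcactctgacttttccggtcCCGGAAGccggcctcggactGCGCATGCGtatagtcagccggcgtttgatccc
Mrpl43: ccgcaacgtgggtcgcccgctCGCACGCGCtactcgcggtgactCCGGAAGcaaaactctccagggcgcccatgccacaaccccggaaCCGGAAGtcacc
Mrpl17: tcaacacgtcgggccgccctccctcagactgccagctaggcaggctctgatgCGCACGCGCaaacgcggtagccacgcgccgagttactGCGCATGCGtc
Mrpl32: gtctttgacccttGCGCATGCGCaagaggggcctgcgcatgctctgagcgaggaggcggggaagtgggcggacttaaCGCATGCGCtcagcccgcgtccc
Mrps22: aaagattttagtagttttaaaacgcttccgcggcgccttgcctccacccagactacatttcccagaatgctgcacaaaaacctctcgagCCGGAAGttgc

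The unit of these counts is the gene, and a gene with several promoters counted once if any of them held the motif. The NRF1 motif was present in 18 of the 68 members with a promoter (26.5%), against 14.6% of tested genes and 7.12% of all genes of the promoter table. The ETS motif was present in 25 members (36.8%), against 19.2% of tested genes and 9.93% of all. The YY1 motif was present in 8 members (11.8%), against 3.42% of tested genes and 1.64% of all. At least 1 of the 3 motifs was found in 42 members (61.8%), against 32.5% of tested genes. A match describes letters and is not a site of binding, and a promoter without one holds only other letters.

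The libraries held 16872968 to 22751753 gene counts each, and the lowest count of a tested member in any library was 188. The antimiR-195 replicate 2 library stood apart from the other 7. Its counts depended most on gene length, with a slope of -0.21 log2 CPM per doubling of length over all tested genes, against -0.08 to 0.15 in the others. Values without it are therefore given beside the fold changes that it moved most.

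The level of a gene relative to its length is given as RPKM, reads per kilobase of gene and per megaread of sequencing depth, as the authors deposited it. Over the 76 tested members the mean over all 8 libraries had a median of 27.1 RPKM and reached from 3.01 to 335 RPKM. Mrpl42, a large subunit protein specific to mitochondria, was the highest at 341 ± 68.5 RPKM with antimiR-195 and 330 ± 29.9 RPKM with hydrogel (SD, n = 4 each). Mrpl52, also specific to the mitochondrial large subunit, had 186 ± 109 RPKM with antimiR-195 and 153 ± 24.97 RPKM with hydrogel. The next was Mrpl12, whose bacterial counterpart forms the stalk of the large subunit and whose human product also binds the mitochondrial RNA polymerase. It had 141 ± 46.8 RPKM with antimiR-195 and 127 ± 16.7 RPKM with hydrogel. In all of these the difference between groups was smaller than the SD within the antimiR-195 group.

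At the low end stood Mrps10 and Mrps5, small subunit proteins shared with bacteria, and Mrpl19, a shared protein of the large subunit. Mrps10 had 2.97 ± 0.240 RPKM with antimiR-195 and 3.04 ± 0.127 RPKM with hydrogel (SD, n = 4 each). Mrps5 had 4.10 ± 0.324 RPKM with antimiR-195 and 4.32 ± 0.248 RPKM with hydrogel. Mrpl19 had 6.13 ± 1.61 RPKM with antimiR-195 and 5.67 ± 0.325 RPKM with hydrogel. The order of levels depends on the length used. The authors' gene length of Mrps10 is 8079 bases, while its annotated coding transcript has 1018 bases, and divided by the transcript length Mrps10 ranked 49 of 76 in place of 76. Mrpl13, a shared large subunit protein, ranked 66 by RPKM and 18 by the coding transcript. Mrps16, a shared small subunit protein, ranked 6 by RPKM and 55 by the coding transcript, whereas Mrpl42 was the highest on both scales.

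By class, the median was 33.2 RPKM in the 29 large subunit members shared with bacteria and 27.2 RPKM in the 20 specific ones. It was 32.8 RPKM in the 16 small subunit members shared with bacteria and 15.9 RPKM in the 10 specific ones. The ranges of the 4 classes overlapped. The small subunit members specific to mitochondria had the lowest median also per coding transcript, 18.4 CPM per kilobase against 35.6 to 42.7 in the other classes.

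**Figure D1:**
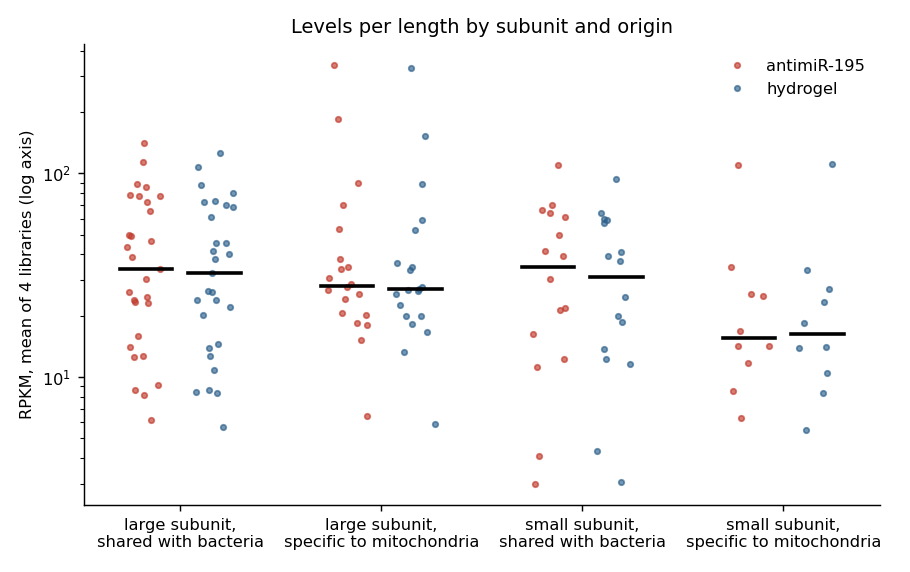
Mean RPKM of each tested member on a log axis, by ribosomal subunit and by whether the protein has a bacterial counterpart, with antimiR-195 left of hydrogel. Each point is 1 gene averaged over 4 libraries, bars are medians of the genes, and the 2 groups lie at nearly the same height in every class, while genes of a class spread widely.

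The question of the comparison was which transcripts differ when the gel carries the inhibitor. The mitochondrial ribosomal protein genes did not pass the test in either direction. Averaged over the 76 tested members, log2 CPM (counts relative to library size, scaled with TMM factors) was 5.73 ± 0.30 with antimiR-195 and 5.71 ± 0.16 with hydrogel (SD, n = 4 each), a difference of 0.02. In edgeR's quasi-likelihood test 0 of 76 members had a Benjamini-Hochberg adjusted p below 0.05, against 0.0% of the 13972 genes tested, and DESeq2 also called 0. At an unadjusted p below 0.05 there were 0 members by edgeR and 0 by DESeq2, against 1.27% of all genes by edgeR. The smallest unadjusted p of a member was 0.0971, and every adjusted p was 0.9999. In bulk tissue, fewer cells of a type and less RNA per cell cannot be told apart.

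The log2 fold changes of the members, antimiR-195 over hydrogel, lay between -0.29 and 0.26 with a median of 0.05, against a median of 0.01 over all genes. They were above 0 in 50 of 76 members (65.8%), against 52.4% of all genes tested. Their standard errors were 0.10 to 0.32, with a median of 0.17, and 68 of the 76 fold changes lay within 1 standard error of 0. Without antimiR-195 replicate 2 the median was -0.12 and 5 members were above 0. Without hydrogel replicate 4 the median was -0.02 and 34 members were above 0. The sign of the median thus turned when either of these libraries was left out. The groups did not overlap in 1 member (1.32%), against 1.07% of all genes.

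**Figure D2:**
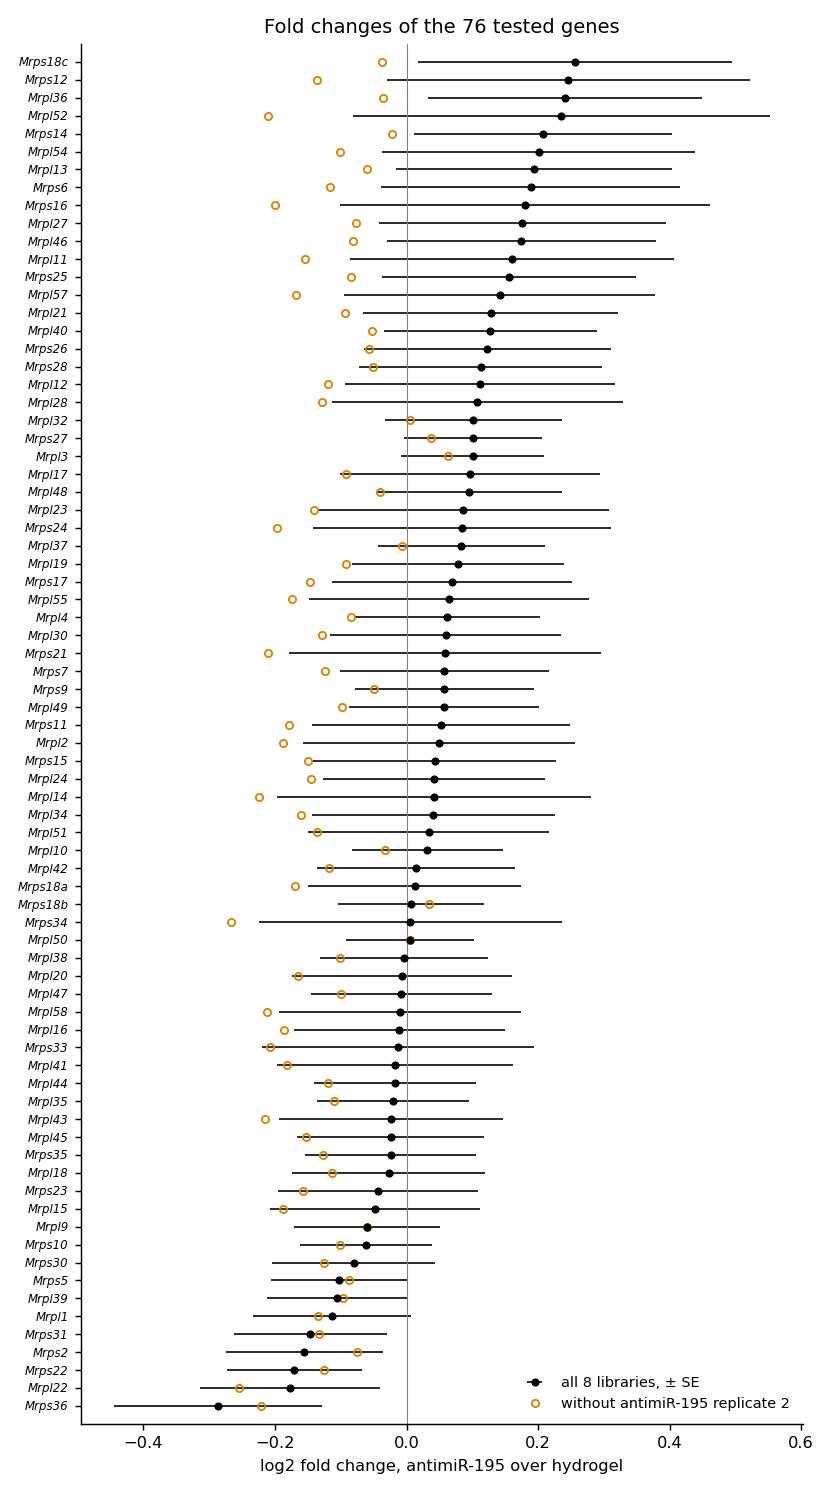
Log2 fold change, antimiR-195 over hydrogel, of each of the 76 tested members in order of size. Filled points with bars are the values over all 8 libraries ± standard error, and open points are the values without antimiR-195 replicate 2, most of which lie left of 0.

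The libraries differed more within the groups than between them. The mean log2 CPM of the members was 5.72, 6.13, 5.44 and 5.62 in antimiR-195 replicates 1 to 4, against 5.72, 5.66, 5.92 and 5.54 in hydrogel replicates 1 to 4. The highest and the lowest library were both from the antimiR-195 group, 0.70 apart, and without replicate 2 the remaining 7 libraries spanned 0.49. As a share of all gene counts the members made up 0.479, 0.666, 0.381 and 0.432% in the antimiR-195 libraries, against 0.469, 0.438, 0.520 and 0.421% in the hydrogel libraries. The hydrogel values all lay inside the range of the antimiR-195 values.

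Most members had the same libraries at their ends. AntimiR-195 replicate 2 held the highest value of 61 members and hydrogel replicate 3 that of 11. The exceptions were Mrps18b, Mrps5, Mrps2 and Mrps22, which peaked in other libraries. AntimiR-195 replicate 3 held the lowest value of 56 members and hydrogel replicate 4 that of 14. Mrps36, Mrps2 and Mrps22 were lowest in antimiR-195 replicate 2, where most other members were highest. Large and small subunit genes kept nearly the same distance in every library: the large subunit mean exceeded the small subunit mean by 0.37 to 0.41 log2 CPM in the antimiR-195 libraries and by 0.36 to 0.42 in the hydrogel libraries.

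The order of the 8 libraries by member level was the same as their order by the length slope, from the most negative slope to the most positive. That slope, in log2 CPM per doubling of gene length over all genes, was -0.03, -0.21, 0.15 and 0.06 in antimiR-195 replicates 1 to 4, against -0.02, 0.05, -0.08 and 0.07 in hydrogel replicates 1 to 4. The members are short genes, with a median annotated transcript of 1324 bases against 3046 bases over all genes tested, and a median coding sequence of 594 against 1383 bases. By the authors' gene length, the one used for the slope, the medians were 1715 bases in the members and 3601.5 bases over all genes tested. A smooth trend on the authors' gene length was then taken out of each library. The deviation of the members from their own mean was then 0.17 log2 in antimiR-195 replicate 2 and -0.13 in antimiR-195 replicate 3. It was 0.13 in hydrogel replicate 3 and -0.10 in hydrogel replicate 4, so the same 4 libraries stayed at the ends with smaller distances. Cardiomyocyte markers varied alongside: all 7 of 7 were detected, and their summed level was 54476, 58547, 50038 and 53478 CPM in the antimiR-195 libraries, against 56489, 52502, 57017 and 46257 CPM in the hydrogel libraries. AntimiR-195 replicate 2 was also the highest library by summed markers of fibroblasts (3378 CPM), macrophages (1780 CPM), neutrophils (67.6 CPM) and skeletal muscle (3460 CPM). It was highest too for T and B cell markers (2.13 CPM), lowest for endothelial markers (434 CPM) and neither for smooth muscle and atrial markers. A sum rests mostly on its most abundant markers. Between the groups, the log2 fold change was above 0 in 5 of 7 cardiomyocyte, 1 of 5 fibroblast and 1 of 5 macrophage markers. The same held for 3 of 4 neutrophil, 1 of 4 endothelial and 2 of 3 tested skeletal muscle markers. The part of length and of cell composition in the members' levels was not tested.

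**Figure D3:**
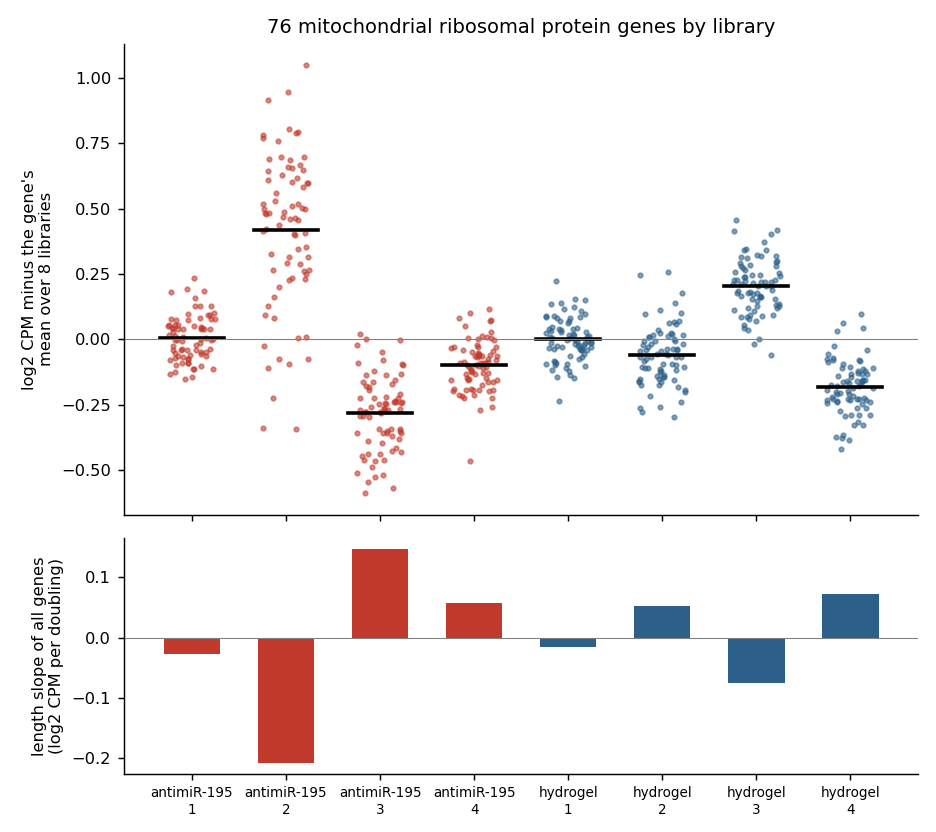
Upper panel, log2 CPM of each of the 76 tested members minus its mean over 8 libraries, with 1 point per gene and the mean as a bar. Lower panel, the slope of log2 CPM on gene length over all tested genes in the same libraries, lowest in antimiR-195 replicate 2 (-0.21), where the members are highest, and highest in antimiR-195 replicate 3 (0.15), where they are lowest.

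Among the members themselves, the excess in antimiR-195 replicate 2 varied with the coding sequence. In the 25 members with the shortest coding sequences, 261 to 480 bases, log2 CPM in that library exceeded the mean of the other 7 by a median of 0.70. The median was 0.56 in the 25 members of 498 to 753 bases and 0.29 in the 26 members of 756 to 1326 bases. Across the 76 genes Spearman's rho between the excess and the coding length was -0.58, and it was -0.33 with the whole transcript and -0.29 with the authors' gene length. These genes share 1 library and are not independent replicates, so the values are a description. The SD of log2 CPM within groups showed the same order, with medians of 0.34, 0.26 and 0.17 from the shortest to the longest coding sequences. That SD includes antimiR-195 replicate 2, so it measures in part the same excess and is not a separate observation.

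**Figure D4:**
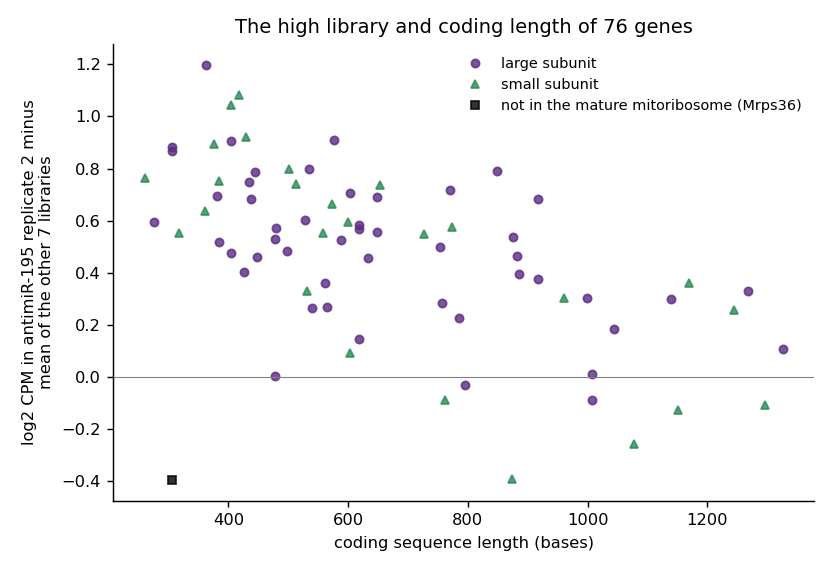
Log2 CPM in antimiR-195 replicate 2 minus the mean of the other 7 libraries, against the length of the coding sequence in bases, for the 76 tested members. Circles are large subunit genes, triangles small subunit genes and the square is Mrps36, which lies at -0.39 although its coding sequence of 306 bases is short.

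Of the large subunit proteins shared with bacteria, Mrpl12 had 201, 307, 155 and 187 CPM in antimiR-195 replicates 1 to 4, against 187, 185, 243 and 171 CPM in hydrogel replicates 1 to 4. Replicate 2 was the highest of all libraries and the other antimiR-195 values lay inside or below the hydrogel range. The log2 fold change was 0.11 ± 0.21 (SE), and -0.12 without antimiR-195 replicate 2. Mrpl36, the smallest protein of the large subunit in bacteria, had 40.1, 66.1, 32.3 and 35.1 CPM with antimiR-195, against 39.2, 35.9, 40.0 and 31.9 CPM with hydrogel. Again 1 antimiR-195 library stood above the rest, and the log2 fold change of 0.24 ± 0.21 became -0.04 without it. Mrpl13 showed the same picture, with 93.9, 147, 74.6 and 80.8 CPM in the antimiR-195 libraries, against 92.9, 77.8, 103 and 72.6 CPM in the hydrogel libraries. Its log2 fold change was 0.19 ± 0.21 with all libraries and -0.06 without antimiR-195 replicate 2.

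Mrpl22, which lines the exit tunnel for the new protein, was among the members with the most negative fold changes. It had 22.4, 26.8, 20.03 and 23.7 CPM with antimiR-195, against 28.7, 23.9, 30.1 and 22.3 CPM with hydrogel. The groups overlapped, and the log2 fold change was -0.18 ± 0.14 with all libraries and -0.25 without antimiR-195 replicate 2. Mrpl19 had a log2 fold change of 0.08 ± 0.16 with all libraries and -0.09 without that one.

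Of the large subunit proteins specific to mitochondria, Mrpl52 had the largest spread within groups of all members, an SD of 0.56 on the log2 scale. It had 74.1, 135, 44.0 and 47.2 CPM with antimiR-195, against 72.6, 53.8, 74.5 and 54.4 CPM with hydrogel. The antimiR-195 libraries thus held the highest value and the 2 lowest. Its log2 fold change was 0.24 ± 0.32 with all libraries and -0.21 without antimiR-195 replicate 2. Mrpl50 was among the steadiest members (SD 0.08), with 59.1, 57.7, 58.4 and 55.6 CPM with antimiR-195, against 56.9, 58.1, 62.6 and 52.4 CPM with hydrogel. Its fold change was 0.00 ± 0.10, although its coding sequence of 477 bases is short.

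Mrpl58 is a peptidyl-tRNA hydrolase built into the large subunit, which frees stalled chains. It had 60.8 ± 16.7 CPM with antimiR-195 and 61.2 ± 8.62 CPM with hydrogel, and a log2 fold change of -0.01 ± 0.18, which was -0.21 without antimiR-195 replicate 2. Mrpl42, the most abundant per length, had 224 ± 40.7 CPM with antimiR-195 and 222 ± 27.5 CPM with hydrogel. The large subunit proteins with small subunit symbols also differed little: Mrps30 had 42.0 ± 5.15 CPM with antimiR-195 and 44.4 ± 4.75 CPM with hydrogel, and Mrps18a had 74.8 ± 18.1 CPM with antimiR-195 and 74.2 ± 7.04 CPM with hydrogel.

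The S18 family comprises 3 relatives of 1 bacterial protein. Mrps18c, the family member in the position of the bacterial protein, had 31.7, 49.8, 22.3 and 24.5 CPM with antimiR-195, against 24.1, 24.1, 34.04 and 25.1 CPM with hydrogel. It had the highest fold change of all members, 0.26 ± 0.24, and -0.04 without antimiR-195 replicate 2, the library with its highest value. Mrps18b, at another place in the small subunit, had 19.9, 16.7, 16.98 and 17.1 CPM with antimiR-195, against 17.2, 18.0, 18.6 and 16.5 CPM with hydrogel. Its highest value was in antimiR-195 replicate 1, and antimiR-195 replicate 2 was near its lowest. The log2 fold change was 0.01 ± 0.11, and 0.03 without antimiR-195 replicate 2. Mrps18c shares exonic bases on its own strand with another gene, and the authors' counting could leave out reads there.

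Of the other small subunit proteins shared with bacteria, Mrps12, a protein of the decoding centre, had 44.9, 86.8, 31.3 and 41.5 CPM with antimiR-195, against 44.1, 40.3, 53.4 and 34.6 CPM with hydrogel. Mrps16 had 56.9, 103, 37.9 and 45.8 CPM with antimiR-195, against 53.5, 48.9, 69.3 and 43.5 CPM with hydrogel. In both, antimiR-195 replicate 2 was the highest library and antimiR-195 replicate 3 the lowest. Their SDs within groups, 0.48 for Mrps12 and 0.49 for Mrps16, were among the largest of all members, and the log2 fold change was 0.25 ± 0.28 for Mrps12 and 0.18 ± 0.28 for Mrps16. After leaving out antimiR-195 replicate 2 it was -0.14 for Mrps12 and -0.20 for Mrps16. Mrps10, the member with the smallest SD (0.08), had 22.8, 25.6, 22.1 and 24.5 CPM with antimiR-195, against 23.9, 24.3, 25.7 and 25.3 CPM with hydrogel. Its log2 fold change was -0.06 ± 0.10, and -0.10 without antimiR-195 replicate 2. Mrps5 had -0.10 ± 0.10 with all libraries.

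Mrps2 had 33.1, 27.1, 34.3 and 36.1 CPM with antimiR-195, against 33.97, 40.6, 35.4 and 35.4 CPM with hydrogel. Its lowest value was in antimiR-195 replicate 2, without which the log2 fold change of -0.16 ± 0.12 was -0.08.

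Of the small subunit proteins specific to mitochondria, Mrps22 (chr9:98588730-98601660, minus strand, GRCm38) was the 1 member whose groups did not overlap. It had 22.1, 18.3, 19.97 and 20.3 CPM with antimiR-195, against 22.6, 22.8, 22.4 and 22.8 CPM with hydrogel. All antimiR-195 libraries lay below all hydrogel libraries, the nearest by less than 1 CPM. The log2 fold change was -0.17 ± 0.10 (edgeR, unadjusted p = 0.127 and adjusted p = 0.9999) and -0.13 without antimiR-195 replicate 2. With a length trend and that library both removed it was -0.05. Mrps31 had 38.3 ± 1.32 CPM with antimiR-195 and 42.3 ± 5.58 CPM with hydrogel, a log2 fold change of -0.15 ± 0.12. Mrps27, which carries repeats known for RNA binding, had 46.8 ± 4.56 CPM with antimiR-195 and 43.7 ± 1.77 CPM with hydrogel, a log2 fold change of 0.10 ± 0.10 that was 0.04 without antimiR-195 replicate 2.

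Mrps36 (chr13:100735955-100744659, minus strand, GRCm38), the dehydrogenase subunit, had the lowest fold change and the smallest p of all members. It had 14.3, 12.3, 14.1 and 16.6 CPM with antimiR-195, against 15.3, 18.7, 21.5 and 14.2 CPM with hydrogel. Hydrogel replicates 2 and 3 stood above all other libraries, while hydrogel replicates 1 and 4 lay within the antimiR-195 range. The log2 fold change was -0.29 ± 0.16 (edgeR, unadjusted p = 0.0971 and adjusted p = 0.9999). It was -0.22 without antimiR-195 replicate 2, -0.14 with limma-voom quality weights and -0.14 with a length trend and antimiR-195 replicate 2 both removed. Without hydrogel replicate 4 it was -0.37 (edgeR, unadjusted p = 0.0433 and adjusted p = 0.9999), a setting in which 304 of the 13972 genes had an unadjusted p below 0.05.

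**Figure D5:**
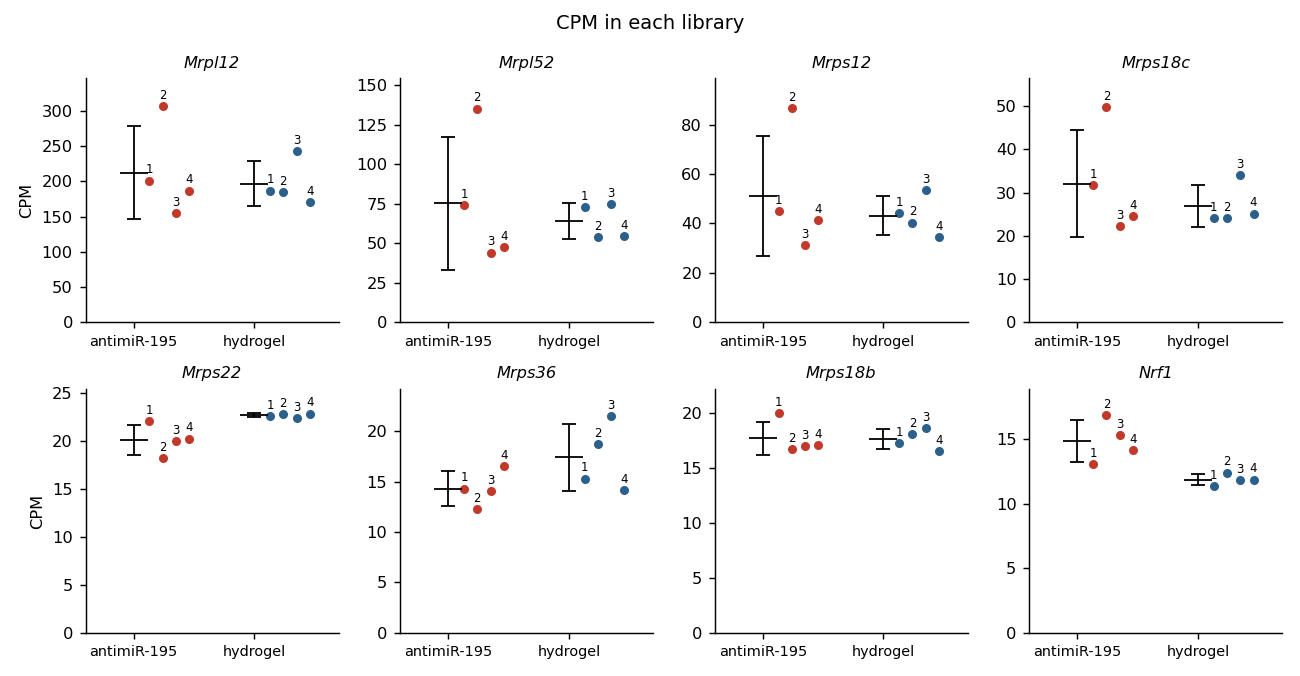
CPM of 7 members and of Nrf1 in each library, antimiR-195 left of hydrogel, with replicate numbers at the points and mean ± SD of 4 libraries as bars. AntimiR-195 replicate 2 is the highest library of Mrpl12, Mrpl52, Mrps12 and Mrps18c and the lowest of Mrps22 and Mrps36.

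In humans, mutations of MRPL3, MRPL44, MRPS14 and MRPS22 are known causes of cardiomyopathy. Besides Mrps22, described above, Mrpl3 had 91.2, 99.2, 82.99 and 95.3 CPM with antimiR-195, against 86.8, 80.8, 96.0 and 80.4 CPM with hydrogel, a log2 fold change of 0.10 ± 0.11 that was 0.06 without antimiR-195 replicate 2. The groups overlapped, as they did for Mrpl44, a relative of RNase III in the large subunit, with 45.3, 59.1, 41.6 and 50.1 CPM with antimiR-195, against 50.1, 49.9, 52.2 and 46.5 CPM with hydrogel. Its log2 fold change was -0.02 ± 0.12, and -0.12 without antimiR-195 replicate 2. Mrps14, a small subunit protein shared with bacteria, had 49.4, 75.1, 39.5 and 44.4 CPM with antimiR-195, against 42.9, 39.7, 55.4 and 42.6 CPM with hydrogel. Its log2 fold change was 0.21 ± 0.20 with all libraries and -0.02 without antimiR-195 replicate 2. The 51 tested members not named with values had log2 fold changes between -0.11 and 0.20, 35 of them above 0, with unadjusted p-values of 0.343 or more, and 46 of them were highest in antimiR-195 replicate 2.

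By role, 32 of the 49 large subunit members were above 0, with a median log2 fold change of 0.04, and 18 of the 26 small subunit members, with a median of 0.06. Without antimiR-195 replicate 2 both medians were -0.12, with 3 large and 2 small subunit members above 0.

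The other genes of the pathway likewise held 0 calls. The 5 subunit genes with other symbols had a median log2 fold change of 0.01, with 3 above and 2 below 0. In this list Chchd1 stood at 0.28 ± 0.26 and Ptcd3 at -0.17 ± 0.17. Without antimiR-195 replicate 2 the median was -0.10, Chchd1 stood at -0.08 and Ptcd3 at -0.00. The mean deviation of the 5 by library followed that of the members, at 0.40 in antimiR-195 replicate 2 and -0.33 in antimiR-195 replicate 3. Ptcd3 did not follow, with 53.3 CPM in antimiR-195 replicate 2, its lowest library, and 94.0 CPM in antimiR-195 replicate 3. Factors of mitochondrial translation, 13 tested, had a median of -0.02 with 4 above 0. Of these Taco1, a translational activator of the cytochrome oxidase mRNA, stood at -0.26 ± 0.21 and the initiation factor gene Mtif2 at -0.17 ± 0.17, while without antimiR-195 replicate 2 Taco1 stood at -0.06 and Mtif2 at -0.01. Their mean deviation in antimiR-195 replicate 2 was -0.14, opposite in sign to that of the ribosomal proteins. The 22 genes for charging mitochondrial tRNAs had a median of -0.01 with 10 above 0, and of -0.02 without antimiR-195 replicate 2. Of these Gars, for glycine, stood at 0.21 ± 0.15, and at 0.05 without antimiR-195 replicate 2.

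Assembly factors and enzymes that modify the ribosomal RNA, 25 tested, had a median of -0.00 with 12 above 0. Eral1, a GTPase that binds the small subunit RNA, stood at -0.26 ± 0.14 and the methyltransferase gene Mrm1 at -0.17 ± 0.12. Without antimiR-195 replicate 2 the median was -0.06, Eral1 stood at -0.14 and Mrm1 at -0.14. Genes for mitochondrial DNA transcription, replication and RNA stability, 13 of 14 tested, had a median of -0.05 with 4 above 0, and of -0.02 without antimiR-195 replicate 2. In this list the elongation factor gene Tefm stood at -0.16 ± 0.10 and Mterf1a at -0.41 ± 0.28. The 5 genes for inserting the products into the inner membrane had a median of 0.06 with 4 above 0, with Cox18 at 0.24 ± 0.15 and Spg7 at 0.13 ± 0.12. Leaving out antimiR-195 replicate 2 gave a median of 0.04, and Cox18 stood at 0.11 and Spg7 at 0.08.

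The mRNAs that these ribosomes translate, encoded in mitochondrial DNA, were tested for 7 of 13 genes, as the others did not pass the count filter. Multiple alignments were not counted for any gene, so failing this filter sets no limit on the level of those others. The share of multiple alignments was 47.8% in antimiR-195 replicate 2, against 42.1% to 44.5% in the other libraries. Its part in the values of these mRNAs was not tested. Of the 7, 0 were above 0, against 52.4% of all genes tested, with a median of -0.17. The 2 with the smallest p were mt-Nd2 at -0.30 ± 0.30 and mt-Nd4 at -0.21 ± 0.23. The mean deviation of the 7 was -0.88 log2 in antimiR-195 replicate 2, the library in which the ribosomal protein genes were highest. It was 0.27 in antimiR-195 replicate 3, in which the ribosomal protein genes were lowest. The exception was mt-Nd6, with 98.9 CPM in antimiR-195 replicate 2, the highest of its group, and 63.4 CPM in antimiR-195 replicate 3, the lowest. Without antimiR-195 replicate 2 the median of the 7 was -0.00 and the signs were mixed. In that setting mt-Nd2 stood at -0.05, mt-Nd4 at -0.05, mt-Nd6 at -0.20 and mt-Nd1 at -0.00. By contrast, mt-Co1 stood at 0.07, mt-Cytb at 0.03 and mt-Nd5 at 0.14.

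Of the regulators named for mitochondrial biogenesis, 7 of 10 were above 0 with a median of 0.03, which was 0.12 without antimiR-195 replicate 2. The pathway lists, in the order given here, held 5, 13, 22, 25, 13, 5, 7 and 10 tested genes. Of all genes tested, 1.27% had an unadjusted edgeR p below 0.05. Nrf1, the gene of the factor whose motif was counted in the promoters, was the 1 such gene of all these lists together. It had 13.1, 16.9, 15.3 and 14.2 CPM in antimiR-195 replicates 1 to 4, against 11.4, 12.4, 11.8 and 11.9 CPM in hydrogel replicates 1 to 4. All antimiR-195 libraries lay above all hydrogel libraries, while groups did not overlap in 1.07% of all genes, either direction counted. The means were 14.9 ± 1.62 CPM with antimiR-195 and 11.9 ± 0.430 CPM with hydrogel (SD, n = 4 each), and the log2 fold change was 0.33 ± 0.12. With edgeR the unadjusted p was 0.0206 and the adjusted p 0.9999, so Nrf1 did not pass. The log2 fold change was 0.26 without antimiR-195 replicate 2. With a length trend and that library both removed it was 0.16, at an unadjusted p of 0.136. Pprc1, a coactivator gene of the same list, stood at 0.14 ± 0.11.

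The tissue label was checked against marker genes of the cells that a ventricle can hold. The 5 of 5 fibroblast markers summed to 2495 to 3378 CPM with antimiR-195 and 1888 to 3139 CPM with hydrogel, and the 5 of 5 macrophage markers to 1062 to 1780 CPM with antimiR-195 and 1271 to 1746 CPM with hydrogel. The 4 of 4 endothelial markers summed to 434 to 655 CPM with antimiR-195 and 500 to 656 CPM with hydrogel. The 4 of 4 neutrophil markers reached 67.6 CPM in antimiR-195 replicate 2 and 21.7 to 28.6 CPM in the other antimiR-195 libraries, against 24.6 to 30.3 CPM in the hydrogel libraries. T and B cell markers, 3 of 4 with counts in every library, summed to at most 2.13 CPM with antimiR-195 and 1.66 CPM with hydrogel. The 4 of 4 smooth muscle and pericyte markers summed to 692 to 846 CPM with antimiR-195 and 654 to 771 CPM with hydrogel, and the 3 atrial markers to 3.19 to 39.8 CPM with antimiR-195 and 9.83 to 33.9 CPM with hydrogel. The cardiomyocyte markers, given above by library, were at 46257 CPM or more in all 8. Markers of skeletal muscle, of which the heart also expresses some, summed to 2204 to 3460 CPM with antimiR-195 and 2308 to 3078 CPM with hydrogel.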

How the data were processed

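TRIzol was used to isolate RNA and a TruSeq stranded kit to make mRNA libraries, per the labels' protocols. Tools named in the submitters' processing notes are STAR, HTSeq and DESeq, with no version, and the build is GRCm38. Neither the annotation release nor the strand setting is given in the sources used here. The authors deposited raw counts per Ensembl gene and RPKM values. Lines without a gene, such as ambiguous reads, stayed outside library sizes and tests. They were 6.38% to 7.55% (no gene) and 0.772% to 1.05% (ambiguous) of uniquely aligned reads, and multiple alignments were 42.1% to 47.8% of all lines. AntimiR-195 replicate 2 had the lowest share without a gene and the highest shares of ambiguous reads and multiple alignments. Its limma quality weight was 0.16, against 0.82 to 2.49 in the other libraries. Gene names, transcript and coding lengths and UTRs came from GENCODE M21, promoters and the microRNA from RefSeq. The gene length behind the length slopes and the length trend was the authors', as implied by their counts and RPKM.

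Counts were tested with edgeR 4.0.16 (R 4.3.3), using filterByExpr, TMM factors and the quasi-likelihood test of 4 antimiR-195 against 4 hydrogel libraries without covariates, with p-values adjusted over all 13972 genes at a threshold of 0.05. The procedure was tested on simulated data. DESeq2 1.42.0, limma 3.58.1 (voom with quality weights, and trend on log2 of RPKM plus 0.1), other scaling, no filter, removal of a length trend and leaving out each library were alternatives. Log2 CPM used a prior count of 2. Tests are two-sided. Genes named with values were those with the smallest p per direction, the highest and lowest RPKM, the largest and smallest SD, and fixed role and cardiomyopathy genes, and in each pathway list the 2 with the smallest p. A gene that met this rule is not reported here. The members and lists were chosen with earlier results of these data known. Mrpl33 was not analysed here. Among the tested members, 31 share exonic bases with another gene, 6 of them on the same strand, and pseudogene rows of Mrps36, Mrpl23 and Mrpl48 exist, so their counts are less certain.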

Additional observations from a re-analysis of the deposited data

Results flagged for a closer look

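In 104 sets of 4 libraries, formed by the genes that met the naming rule, the mean of the members, the length slope and the marker sums in each group, 7 had a library far from the other 3 of its group, and chance alone gives about 1 in 20. Of the members, Mrps18b had a log2 CPM of 4.32 in antimiR-195 replicate 1, the highest of its group, whose lowest value was 4.07. Mrps18c had 5.09 in hydrogel replicate 3, the highest of its group, whose lowest value was 4.60. In antimiR-195 replicate 2, Ptcd3 was far below the rest of its group at 5.74 log2 CPM (group highest 6.57), and Eral1 at 3.90 (group highest 4.52). In the same library the fibroblast markers were far above the rest of the group at 3378 CPM (group lowest 2495), and the neutrophil markers at 67.6 CPM (group lowest 21.7). In hydrogel replicate 2, Taco1 was the highest of its group at 5.37 log2 CPM (group lowest 5.14). The causes were not tested.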

How the results depend on the processing

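Members called remained 0 under all 15 alternatives, and so did calls among the 25 named members (375 values, 324 of them with the main direction) and the 16 pathway genes that met the naming rule (240 values, 6 in the other direction), an addition chosen after seeing the data. The median log2 fold change of the members was 0.04 to 0.06 with DESeq2, upper-quartile factors, no filter and RPKM, 0.00 with the length trend removed, -0.08 with quality weights, -0.08 with the length trend and antimiR-195 replicate 2 removed together and -0.02 to 0.15 when any library other than antimiR-195 replicate 2 was left out, against -0.12 without that one. Members above 0 numbered 8 with limma-voom quality weights, 14 with the length trend and antimiR-195 replicate 2 removed together, and 5 to 64 when 1 library was left out, lowest without antimiR-195 replicate 2. The log2 fold change changed sign with quality weights in Mrpl12 (-0.0413), Mrpl13 (-0.0265), Mrpl19 (-0.0816), Mrpl36 (-0.0176), Mrpl42 (-0.0487), Mrpl50 (-0.0019), Mrpl52 (-0.2437), Mrps12 (-0.0496), Mrps16 (-0.1350), Mrps18a (-0.1046) and Chchd1 (-0.0501). It changed sign with the length trend removed in Mrpl42 (-0.0664), Mrpl50 (-0.0048) and Mrps18b (-0.0050), and with no filter in Mrpl50 (-0.0007). With the length trend and antimiR-195 replicate 2 both removed it changed sign in Mrpl12 (-0.0524), Mrpl13 (-0.1309), Mrpl19 (-0.1267), Mrpl52 (-0.0836), Mrps12 (-0.0437), Mrps14 (-0.0157), Mrps16 (-0.0721), Mrps18a (-0.1736), Ptcd3 (0.0223), Taco1 (0.0188), mt-Nd2 (0.0572) and mt-Nd4 (0.0358). Leaving out 1 library at a time gave -0.1195 to 0.2374 for Mrpl12, -0.0595 to 0.3076 for Mrpl13, -0.0920 to 0.1661 for Mrpl19, -0.0355 to 0.3587 for Mrpl36, -0.1175 to 0.0882 for Mrpl42, -0.1202 to 0.0528 for Mrpl44, -0.0370 to 0.0460 for Mrpl50, -0.2112 to 0.4217 for Mrpl52, -0.2128 to 0.1040 for Mrpl58, -0.1366 to 0.4212 for Mrps12, -0.0226 to 0.3200 for Mrps14, -0.1997 to 0.3508 for Mrps16, -0.1698 to 0.0995 for Mrps18a, -0.0564 to 0.0334 for Mrps18b, -0.0374 to 0.3958 for Mrps18c and -0.0796 to 0.4478 for Chchd1. These lows all came without antimiR-195 replicate 2, except those of Mrpl50 (without hydrogel replicate 4) and Mrps18b (without antimiR-195 replicate 1). The cause was not tested. Nrf1 stayed between 0.16 and 0.38. With 4 libraries a group and a median standard error of 0.17, small changes of a member were not detectable at this depth and spread. No paired analysis was possible because replicate numbers were given in accession order and pair nothing across the groups.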
